A study of Drosophila melanogaster with 2 samples.

Results

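The Bomanins are a family of small secreted immune peptides of *Drosophila*, and 9 of their genes are described here. These are the 6 short Bomanin genes *BomS1* to *BomS6* and the 3 bicipital genes *BomBc1* to *BomBc3*. They were found by name in the deposited table of 17559 genes, where *BomS1*, *BomS2*, *BomS3* and *BomBc1* stand under their older names *IM1*, *IM2*, *IM3* and *IM23*, and the others under their CG names. The rule uses names alone, but the family was picked with earlier results of these data known. RNA came from 1 pool of 10 whole control flies (*w1118*) and 1 pool of 10 whole flies heterozygous for *taf1* (*w1118; taf1*/+, allele Taf1_1 in the labels), and each pool gave 1 library. The mutants were the offspring of *taf1*-mutant flies, on whose mutant chromosome *red1* and *e1* are found too, and control flies. The *w1118* allele is shared by both groups, and other chromosomes of the *taf1* stock cannot be told apart from the loss of *taf1*. The sources used here give neither the sex nor the age of the flies.

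Bomanin genes are among the strongest targets of the Toll pathway. Toll is a receptor on cells of the fat body, the fly's counterpart of liver and adipose tissue. Fungi and many Gram-positive bacteria set off a cascade of serine proteases in the hemolymph, which ends in the cleavage of the ligand Spätzle. Binding of Spätzle to Toll leads to the loss of the inhibitor Cactus and frees the NF-κB factors Dif and Dorsal, which switch on the genes of the effector peptides. A short Bomanin is little more than a secretion signal and 1 Bomanin motif, a tailed Bomanin has a further stretch after the motif, and a bicipital Bomanin has 2 motifs joined by a linker. Flies that lack the main Bomanin cluster succumb to fungi and some bacteria that flies with the cluster survive.

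The control library held 16753242 reads and the mutant library 32364756. Both were brought to 1 scale by TMM (trimmed mean of M-values), a method that compares typical genes. By it the mutant library counts as 1.61 times as large as the control library, and levels are given as CPM, the reads of a gene per 1000000 reads on that scale. All log2 ratios are of mutant over control. A gene was measured with at least 20 reads over both libraries, and a call of higher or lower needed a 1.5-fold ratio and an exact 95% interval without equality. Intervals cover counting error only, and with 1 library per genotype no difference has a replicate check or a p-value. *Taf1*, which encodes the largest subunit of the general transcription factor TFIID, had 1352 control reads and 1564 mutant reads, a log2 ratio of -0.48 (-0.58 to -0.37), which did not reach 1.5-fold on this scale. It was called lower with scaling by total reads (-0.74), to the study's qPCR reference genes *RpL32*, *eEF1alpha2* and *Act5C* (-0.80), to short transcripts (-0.67 for up to 500 nt, -0.64 for up to 700 nt) and to a list of fat body marker genes (-1.22). Mitochondrial genes made up 2.91% of all reads in control and 15.2% in the mutant.

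All 9 Bomanin genes were measured, and 9 were called higher and 0 lower in the *taf1*-mutant library. Over all 11606 measured genes 12.8% were called higher and 6.17% lower. Shares over all measured genes were taken on the TMM scale only, so counts on other scales have none beside them. The 9 genes together had 4456 control reads and 25001 mutant reads. Their summed level went from 266 CPM (258 to 274) to 928 CPM (916 to 939), which is 3.49-fold (3.38 to 3.60) or a log2 ratio of 1.80 (1.76 to 1.85). The single genes ranged from 1.05 to 3.78 with a median of 2.09, beside a median of 0.0040 over all measured genes. With an interval without equality, all 9 were at least 2-fold higher, as were 5.70% of measured genes. By the same rule 5 were at least 4-fold higher, as were 1.59%.

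**Figure D1:**
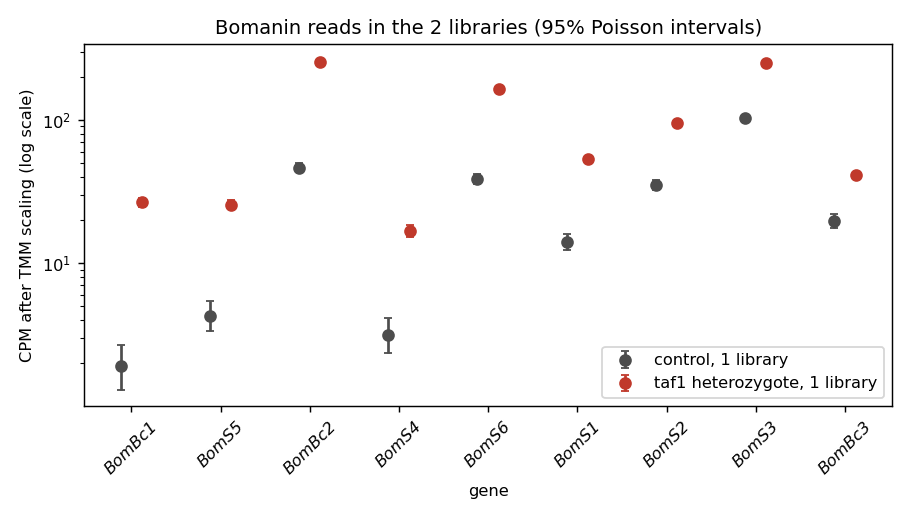
Level of each Bomanin gene in CPM after TMM scaling, on a log axis, in the control library (grey) and the *taf1*-heterozygote library (red), with 95% Poisson intervals. For each of the 9 genes the mutant point lies above the control point and the intervals do not overlap, from *BomBc1* at 1.91 against 26.6 CPM to *BomBc3* at 19.8 against 41.0 CPM.

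Of the short Bomanins, *BomS3* (FBgn0040736) had the most reads in both libraries, 1724 in control and 6761 in the mutant. This was 103 CPM in control (95% Poisson interval 98.1 to 108) and 251 CPM in the mutant (245 to 257), a log2 ratio of 1.29 (1.21 to 1.36). It was the smallest ratio among the short genes and still 2.44-fold. *BomS2* (FBgn0025583) had 586 control reads and 2582 mutant reads, or 35.0 CPM in control (95% Poisson interval 32.2 to 37.9) and 95.8 CPM in the mutant (92.1 to 99.6). The log2 ratio was 1.45 (1.32 to 1.59), or 2.74-fold. *BomS1*, *BomS2* and *BomS3* are the genes of the peptides first seen by mass spectrometry in the hemolymph of infected flies, which gave them their IM ("immune-induced molecule") names. *BomS1* (FBgn0034329) had 236 control reads and 1426 mutant reads, or 14.1 CPM in control (95% Poisson interval 12.3 to 16.0) and 52.9 CPM in the mutant (50.2 to 55.7). The log2 ratio was 1.91 (1.71 to 2.11), or 3.75-fold. Of these 3 genes it had the fewest reads and the largest ratio.

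The other short genes, *BomS4*, *BomS5* and *BomS6*, had higher ratios than the genes of the first 3 peptides. Between *BomS6* and *BomS1* the log2 difference of 0.18 (-0.060 to 0.41) was within counting error. *BomS6* (FBgn0040733) had 646 control reads and 4418 mutant reads, or 38.6 CPM in control (95% Poisson interval 35.6 to 41.7) and 164 CPM in the mutant (159 to 169). The log2 ratio was 2.09 (1.97 to 2.21), or 4.25-fold. *BomS5* and *BomS4* were rare in the control library. *BomS5* (FBgn0040734) had 72 control reads and 691 mutant reads, a log2 ratio of 2.57 (2.22 to 2.95) or 5.93-fold, from 4.30 to 25.6 CPM. *BomS4* (FBgn0034330) had 53 control reads and 453 mutant reads, a log2 ratio of 2.40 (2.00 to 2.85) or 5.27-fold, from 3.16 to 16.8 CPM. With the fewest control reads of the short genes, these 2 had the widest intervals. Summed over the 6 short genes, 3317 control reads stood against 16331 mutant reads, a log2 ratio of 1.61 (1.56 to 1.67).

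The 3 bicipital genes held both the largest and the smallest ratio of the family. *BomBc1* (FBgn0034328) had 32 control reads and 716 mutant reads, or 1.91 CPM in control (95% Poisson interval 1.31 to 2.70) and 26.6 CPM in the mutant (24.7 to 28.6). The log2 ratio was 3.78 (3.29 to 4.36), or 13.7-fold (9.76 to 20.5). It ranked 42 of the 11606 measured genes by log2 ratio. *BomBc2* (FBgn0034331) had 776 control reads and 6850 mutant reads, or 46.3 CPM in control (95% Poisson interval 43.1 to 49.7) and 254 CPM in the mutant (248 to 260.2). The log2 ratio was 2.46 (2.35 to 2.56), or 5.48-fold. Its mutant reads were about as many as those of *BomS3*, the leading gene of the control library. *BomBc3* (FBgn0040582) had 331 control reads and 1104 mutant reads, or 19.8 CPM in control (95% Poisson interval 17.7 to 22.0) and 41.0 CPM in the mutant (38.6 to 43.4). At 1.05 (0.87 to 1.23), or 2.07-fold, its log2 ratio was the lowest of the 9, and it ranked 623. The ratio of the summed short genes lay below that of the summed bicipital genes by a log2 difference of -0.63 (-0.73 to -0.52). The bicipital sum rests mostly on *BomBc2*, which gave 6850 of its 8670 mutant reads.

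**Figure D2:**
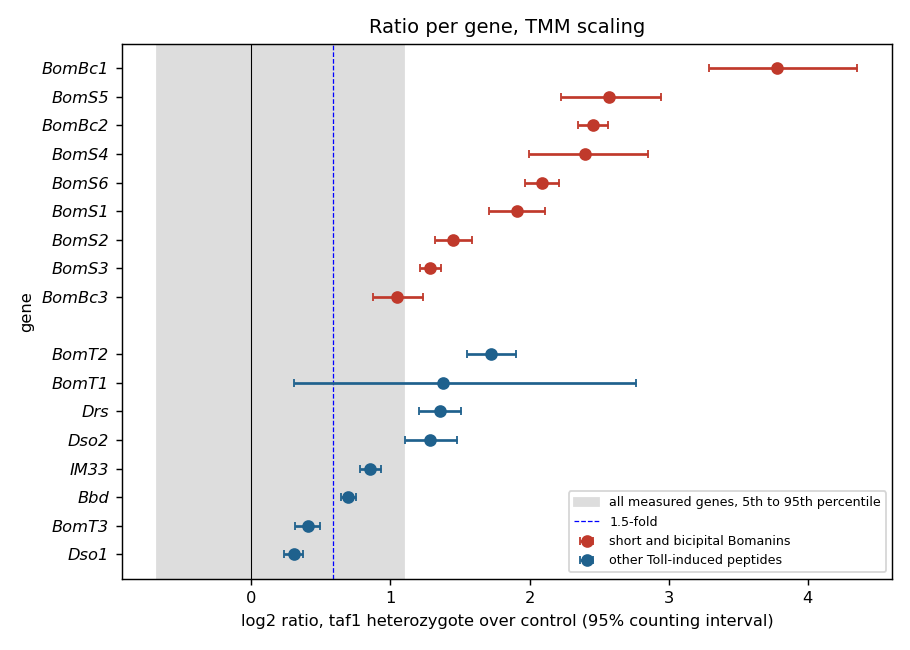
Log2 ratio of mutant over control for the 9 Bomanin genes (red) and the 8 measured genes among the other Toll-induced peptides (blue), with 95% exact counting intervals. The grey band holds the 5th to 95th percentile of all measured genes, and 8 of the 9 red points lie to its right, with *BomBc3* at 1.05 inside it.

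Ordered by ratio, the genes ran *BomBc1*, *BomS5*, *BomBc2*, *BomS4*, *BomS6*, *BomS1*, *BomS2*, *BomS3* and *BomBc3*. The step from *BomBc1* to *BomS5* was a log2 difference of 1.22 (0.58 to 1.89) with an exact conditional interval. The next 4 steps, from *BomS5* through *BomBc2*, *BomS4* and *BomS6* to *BomS1*, were each within counting error, at 0.047 (-0.41 to 0.47) to 0.32 (-0.11 to 0.78), although *BomS5* and *BomS6*, which are not neighbours in this order, differed by 0.49 (0.12 to 0.88). The steps from *BomS1* to *BomS2*, from *BomS2* to *BomS3* and from *BomS3* to *BomBc3* were 0.46 (0.21 to 0.70), 0.17 (0.016 to 0.32) and 0.23 (0.036 to 0.43). From end to end, *BomBc1* stood 2.75 (2.20 to 3.33) above *BomBc3*. Such a difference between 2 genes of the same libraries does not depend on how the libraries are scaled.

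The make-up of the Bomanin reads also differed between the libraries. *BomS3* took 38.7% of them in control (37.3 to 40.1) and 27.0% in the mutant (26.5 to 27.6), by exact binomial intervals. *BomBc2* took 17.4% of them in control (16.3 to 18.6) and 27.4% in the mutant (26.8 to 28.0). *BomBc2* and *BomS3* therefore gave nearly the same share in the mutant library, whereas *BomS3* led clearly in control. *BomS6* went from 14.5% to 17.7%, and *BomS2* from 13.2% to 10.3%. *BomBc1* took 0.718% of them in control (0.492 to 1.01) and 2.86% in the mutant (2.66 to 3.08), and *BomBc3* went from 7.43% to 4.42%. The share of *BomS1* was 5.30% and 5.70%, with overlapping intervals.

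**Figure D3:**
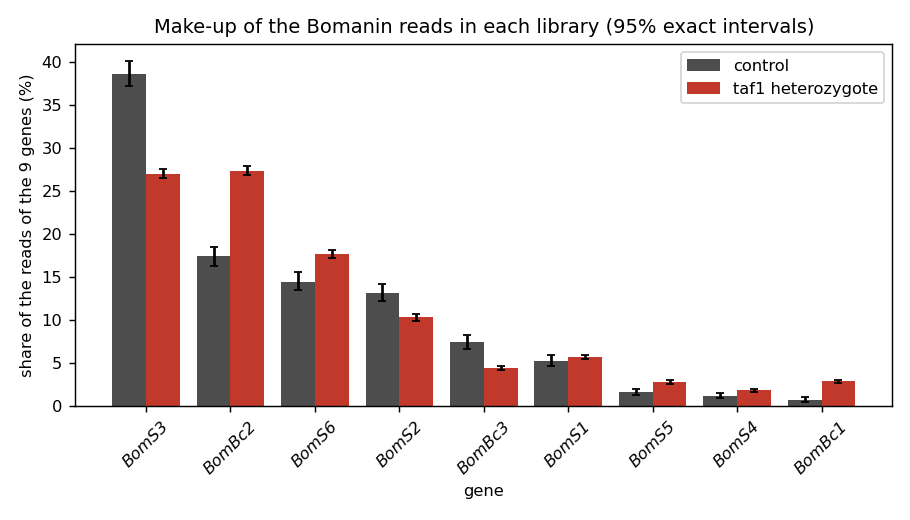
Share of the reads of the 9 Bomanin genes taken by each gene, in percent, in the control library (grey) and the *taf1*-heterozygote library (red), with 95% exact binomial intervals. *BomS3* goes from 38.7% to 27.0%, and *BomBc2* stands beside it at 27.4% in the mutant library.

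Levels of different genes were compared per length of transcript, as RPKM, which is the CPM on the TMM scale divided by the transcript length in kilobases. In the control library *BomS6* and *BomS3* were highest, at 195 and 192 RPKM, and did not differ beyond counting error. They were followed by *BomS2* at 95.3, *BomBc2* at 76.2, *BomS1* at 39.0 and *BomBc3* at 31.4 RPKM, of which the intervals of the last 2 overlapped. *BomS5*, *BomS4* and *BomBc1* were lowest, at 19.7, 11.3 and 4.08 RPKM. In the mutant library *BomS6* stood alone at the top with 828 RPKM, before *BomS3* at 469 and *BomBc2* at 418. The next genes were *BomS2* at 261, *BomS1* at 147 and *BomS5* at 118 RPKM. *BomBc3*, *BomS4* and *BomBc1* were lowest, at 65.1, 59.8 and 56.8 RPKM, and their intervals overlapped from each gene to the next. The highest gene was 47.7 times the lowest in control and 14.6 times in the mutant library. The annotated transcripts of *BomS6* (198 nt) and *BomS5* (218 nt) are very short, and the sources used here do not state the fragment and read lengths, so their RPKM are the least certain.

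The transcripts of all 9 genes are short, from 198 to 629 nt with a median of 367 nt, beside 1704 nt over all measured genes. Short transcripts had higher ratios in these libraries. Among the 1356 measured genes of 700 nt or less outside the gene lists used here, 25.5% were called higher and 8.70% lower, and the median log2 ratio was 0.16. Of these genes, 1.40% reached the log2 ratio of *BomBc1*, 3.69% that of *BomS6*, the median member, and 12.5% that of *BomBc3*. When the median of these genes was set to equality, the Bomanin log2 ratios ran from 0.89 to 3.61, and 9 of 9 were called higher. The part of transcript length in the Bomanin ratios was not tested further.

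Of the 9 genes, 8 lie in 1 cluster on chromosome arm 2R, and *BomBc3* lies on 3R. In BDGP6 the cluster runs from 18381393 to 18390629 on 2R, 9.24 kb with 10 Bomanin genes, among them the tailed genes *BomT1* and *BomT2*. By rising coordinate the genes are *BomT1*, *BomBc1* (- strand, 18382704 to 18383235), *BomS1* (+ strand, 18383949 to 18384378), *BomS4* (+ strand, 18384567 to 18384911), *BomBc2* (- strand, 18384824 to 18385589), *BomS2* (+ strand, 18386602 to 18387030), *BomS3* (+ strand, 18387895 to 18388734), *BomT2*, *BomS5* (+ strand, 18389959 to 18390242) and *BomS6* (- strand, 18390353 to 18390629). *BomBc3* is at 22087075 to 22088501 on the + strand of 3R, next to the tailed gene *BomT3*. All are protein-coding genes of 2 exons, except *BomBc3*, which has 3 exons in its longest annotated form. *BomS4* and *BomBc2* overlap at their ends by 88 bases on opposite strands. The library kit keeps strand, but whether strand was used in counting is not given in the sources, so a part of the 53 and 453 *BomS4* reads may stem from *BomBc2*. Their log2 ratios differed by 0.047 (-0.41 to 0.47). How reads shared between similar Bomanin genes were counted is also not given, so single genes are less certain than their sum.

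The 3 tailed Bomanins all had log2 ratios above 0 but were not all called higher. *BomT2* had 321 control reads and 1708 mutant reads, a log2 ratio of 1.72 (1.55 to 1.90), and was called higher. *BomT1* had few reads, 8 in control and 35 in the mutant library, and was called higher at 1.38 (0.31 to 2.76). *BomT3*, the neighbour of *BomBc3* on 3R, had 1413 control reads and 3008 mutant reads and was not called, at 0.40 (0.31 to 0.50). The 2 Bomanin genes of 3R thus had the 2 lowest log2 ratios of all 12. Summed over each arm, the 10 genes of 2R were at 1.84 (1.79 to 1.89) and the 2 genes of 3R at 0.55 (0.47 to 0.63), a log2 difference of 1.29 (1.19 to 1.38). On 2R the summed short genes and the summed tailed genes differed by -0.11 (-0.29 to 0.074), within counting error. This comparison of the arms was chosen after the values were seen.

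Genes outside the family on either side of the cluster on 2R were measured as well. Of the 5 nearest measured genes on either side, 6 of 10 were called higher and 1 lower, beside 12.8% and 6.17% of all measured genes. The median log2 ratio of the 10 was 0.63. With the qPCR reference genes 3 were higher and 2 lower, and with the fat body markers 1 and 3. These scalings move every log2 ratio by -0.33 and -0.74, and shares of all measured genes called were not taken on them. On the side of higher coordinates all 5, the farthest 10.1 kb from the cluster, were called higher on the TMM scale. *Idgf5*, a chitinase-like growth factor gene 3.04 kb from the cluster, was at 1.84 (1.57 to 2.14), from 123 to 713 reads. The glutathione S-transferase genes *GstE10*, *GstE1*, *GstE2* and *GstE3* were at 0.66, 1.02, 0.86 and 0.60. On the other side, *lncRNA:CR42736*, 3.20 kb from the cluster, was called lower at -1.55 (-3.04 to -0.26) on 15 and 8 reads. Beyond it, *pen-2*, which encodes a subunit of γ-secretase and lies 103 kb from the cluster, was called higher at 0.99. The transcription regulator *sbb* (-0.32, 24.1 kb away), the nuclear lamina gene *Ote* (0.001, 104 kb) and *lncRNA:CR44420* (0.40, 135 kb) were not called.

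**Figure D4:**
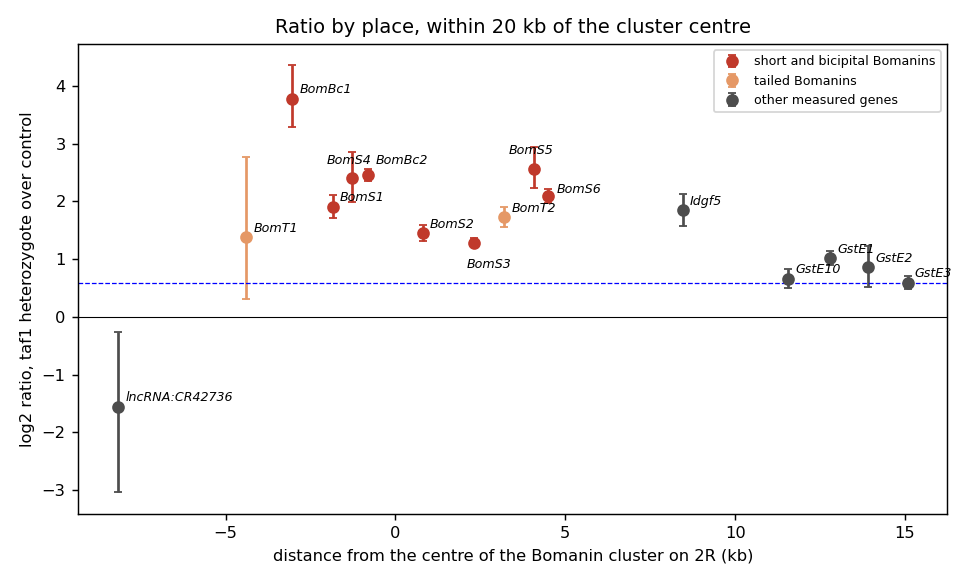
Log2 ratio of mutant over control, with 95% exact intervals, against the distance in kb from the centre of the 2R cluster, for short and bicipital Bomanins (red), tailed Bomanins (orange) and the other measured genes near them (grey); the dashed line marks 1.5-fold. The 8 red points run from *BomS3* at 1.29 to *BomBc1* at 3.78, and the 5 genes to the right lie between *GstE3* at 0.60 and *Idgf5* at 1.84.

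Other peptides that Toll induces were for the most part higher on the TMM scale. Of 12 such genes, the tailed Bomanins included, 8 were measured, 6 were called higher and 0 lower, and their median log2 ratio was 1.07 (0.30 to 1.72 as the range). Beside this, 12.8% of all measured genes were called higher and 6.17% lower. Among those of 700 nt or less outside the lists the shares were 25.5% and 8.70%. *Drs*, the antifungal peptide Drosomycin and the usual readout of Toll, had 465 control reads and 1913 mutant reads, a log2 ratio of 1.35 (1.21 to 1.5). Of the Daisho peptides, *Dso2* was higher at 1.29 (1.10 to 1.48), from 297 to 1168 reads. *Dso1* had 2586 control reads and 5139 mutant reads and at 0.30 (0.24 to 0.37) was not called. *Bbd*, Bombardier, which short Bomanins need to appear in the hemolymph, was called higher at 0.70 (0.64 to 0.75), from 3932 to 10259 reads, and the immune-induced peptide gene *IM33* at 0.86 (0.78 to 0.93), from 2020 to 5882. The count of 6 rests on the scaling. It was 5 with total reads, where *Bbd* lost its call at 0.43, and 3 with the qPCR reference genes, where *BomT1* (1.05), *Bbd* (0.37) and *IM33* (0.53) lost theirs. *BomT2*, *Drs* and *Dso2* kept their calls on both of these scales, where shares of all measured genes called were not taken. The antifungal gene *Mtk*, *IM18* and the Baramicin genes *BaraA1* and *BaraA2* were listed at 0 in both libraries, as were genes with known adult expression such as *elav*, so nothing can be read from these 0 values.

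Among the genes that carry the signal to Toll and into the cell, those called higher on the TMM scale act outside the cell. Of 23 genes of Toll recognition and signalling, 20 were measured, 7 were higher and 0 lower (median 0.17). Over all measured genes the shares were 12.8% and 6.17%. All 7 belong to the 13 extracellular genes, of which 11 were measured with a median log2 ratio of 0.77. The highest were *PGRP-SA*, a sensor of bacterial peptidoglycan, at 1.59 (1.27 to 1.93) from 92 to 447 reads, *SPE*, the protease that cleaves Spätzle, at 1.26 (1.15 to 1.37) from 815 to 3143 reads, and *GNBP3*, a sensor of fungal glucans, at 1.15 (0.96 to 1.35) from 272 to 973 reads. The proteases *psh*, *spirit* and *modSP* and the sensor *GNBP1* were at 0.95, 0.80, 0.71 and 0.77. The ligand gene *spz* was at -0.28 (-0.47 to -0.086) and was not called. Of the receptor and the 9 cytoplasmic genes, 9 were measured and 0 were called, with log2 ratios from -0.39 to 0.18. Among them were *Tl* at 0.026, the inhibitor *cact* at -0.023, *Dif* at -0.26 and *dl* at -0.39. Over the whole list 4 were higher and 1 lower with total reads. With *RpL32* and the other qPCR genes 4 were higher and 3 lower, and 1 and 8 with the fat body markers. These scalings move every log2 ratio by -0.33 and -0.74. With the latter the median of all measured genes, 0.0040 on the TMM scale, itself passes the 1.5-fold limit for lower. Shares of all measured genes called were not taken on these other scales, so no change of the list is read from these counts. The median transcript was 1577 nt in the extracellular part and 2711.5 nt in the other part. The split, *spz*, *Tl*, *cact*, *Dif* and *dl* were singled out after the values were seen, and the difference between the parts was not tested.

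Targets of the Imd pathway, the other NF-κB pathway of the fat body, had a lower summed CPM than the Bomanins, with transcript length left aside. Of 17 genes, 11 were measured, 6 were higher and 0 lower, beside 12.8% and 6.17% of all measured genes. Among measured genes of 700 nt or less outside the lists the shares were 25.5% and 8.70%. The median log2 ratio of the Imd targets was 0.63. Their summed level was 67.0 CPM in control and 98.6 CPM in the mutant library. *Def*, *edin* and *PGRP-LB* were listed at 0 in both libraries, from which nothing can be read, so this sum may be too low. *CecA1*, a cecropin gene, had the most control reads, 427, and 691 in the mutant, and was not called at 0.0077 (-0.17 to 0.19). With total reads or the qPCR reference genes 4 of the 11 were higher, and with the fat body markers 3 were higher and 1 lower. Shares of all measured genes called were not taken on these scales. The highest were the attacin gene *AttD*, from 3 to 60 reads at 3.43 (2.02 to 5.95), the amidase gene *PGRP-SB1*, from 22 to 213 reads at 2.56 (1.95 to 3.29), and the cecropin gene *CecC*, from 2 to 18 reads at 2.20 (0.42 to 5.64).

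Marker genes of the fat body, where Bomanins are made, moved in the same direction. In RNA of whole flies, a change in the number of cells of a type and a change in RNA per cell cannot be told apart. Of 14 fat body and hemolymph markers, 13 were measured, and 8 were higher and 0 lower on the TMM scale. Over all measured genes 12.8% were higher and 6.17% lower. The markers had a median log2 ratio of 0.74 (0.24 to 2.63 as the range), and *Ilp6* was listed at 0. Their summed level was 1357 CPM in control and 2406 CPM in the mutant library. *apolpp*, the lipophorin gene that holds most of these reads, was at 0.74 (0.71 to 0.77). With the median of these markers set to equality, the summed Bomanin log2 ratio was 1.06. On that scale 7 of the 9 genes were called higher, without *BomS3* (0.55) and *BomBc3* (0.31). The share of all measured genes called was not taken on it. Of the 8 measured other Toll-induced peptides, 2 were called higher on this scale, *BomT2* and *Drs*, while *Bbd* (-0.042), *BomT3* (-0.34) and *Dso1* (-0.43) lay below 0.

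Hemocyte markers were higher in 4 and lower in 0 of 8 measured genes (median 0.45, summed level 226 and 287 CPM, *PPO1* listed at 0). Gut markers were higher in 5 and lower in 0 of 8 (median 0.68, 1962 and 3025 CPM), and neuron markers were higher in 0 and lower in 3 of 5 (median -0.83, 1305 and 847 CPM, *elav* listed at 0). Muscle markers were higher in 2 and lower in 0 of 7 (median 0.55, 14826 and 20453 CPM). Testis markers were higher in 2 and lower in 0 of 7 (median 0.033, 2192 and 2589 CPM, *sa* listed at 0). Of the 3 measured ovary and female fat body markers 0 were higher and 1 lower (median -0.30, list sum 16.5 and 14.5 CPM). On the TMM scale 12.8% of all measured genes were called higher and 6.17% lower. With the qPCR reference genes 1 hemocyte and 3 gut markers were higher and 5 neuron markers lower. The share of all measured genes called was not taken on that scale. The part of these tissues in the Bomanin ratios was not tested beyond the fat body scale.

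With 2 libraries, likeness to the Bomanins could be judged by the size of the log2 ratio only. Outside the lists, and with at least 100 CPM in a library, the genes nearest to the summed members were *CG6503* at 1.79 (1101 and 6109 reads), *Sodh1* (*Sodh-1* in the table), a sorbitol dehydrogenase gene, at 1.76 (1294 and 7076 reads) and *lncRNA:CR43239* at 1.85 (879 and 5091 reads), against 1.80 for the members.

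The direction of the Bomanin ratios did not hang on the scaling. Under each of 8 other scalings all 9 log2 ratios lay above 0, the lowest being 0.31 for *BomBc3* on the fat body scale. All 9 were called higher under 7 of the 8, where shares of all measured genes called were not taken. Scaling by total reads moves every log2 ratio by -0.26 and scaling to the qPCR reference genes by -0.33. With total reads the members ran from 0.79 to 3.51, and with the qPCR reference genes from 0.72 to 3.45.

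**Figure D5:**
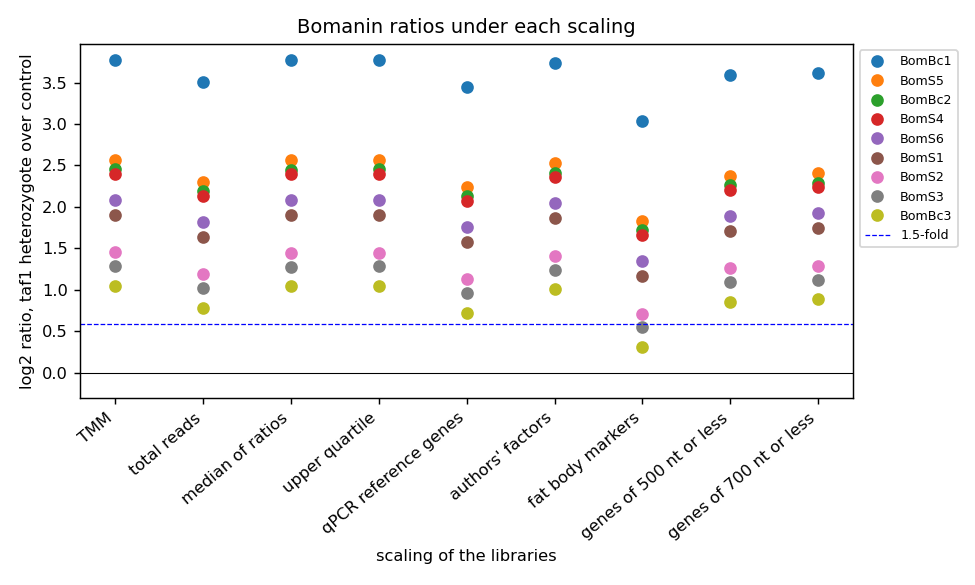
Log2 ratio of mutant over control of each Bomanin gene (coloured points) under TMM and 8 other scalings of the libraries; the dashed line marks 1.5-fold. All points lie above 0, and the points below the line are *BomS3* at 0.55 and *BomBc3* at 0.31, with the fat body markers set to equality.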

How the data were processed

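RNA of 10 pooled whole flies per genotype was prepared with a stranded mRNA kit and sequenced on an Illumina HiSeq by a genomics core. The deposited table has 17559 genes. Per library, its signal values are gene counts over a constant, 0.761 in control and 1.26 in the mutant, set by the authors. The genome build is BDGP6, and the sources used here name no aligner or counting tool and no rule for strand or reads with several matches. Taking the smallest positive value of a column as 1 read (1.31 and 0.794), 100.0% of values were whole within 0.001 of a read. With 1 library per genotype 0 residual degrees of freedom remain, so no count test was run.

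Reads were scaled by TMM with edgeR 4.0.16 (R 4.3.3), and log2 ratios used a prior count of 0.5. Log2 differences between genes or summed groups were taken without it, so they can depart slightly from the printed ratios. Intervals are exact at 95%: conditional binomial for ratios, Poisson for CPM, Clopper-Pearson for shares and conditional odds ratio for differences between genes (scipy 1.17.1, Python 3.11.15). They cover counting error only, and the sources name no molecular identifiers. For a count of 0 the upper Poisson bound is 0.220 CPM in control and 0.137 CPM in the mutant. Names were matched to RefSeq (Release 6 plus ISO1 MT) and Ensembl for 17355 genes. Positions and median transcript lengths come from an Ensembl BDGP6 annotation. *IM10* and *Dpt*, names shared by 2 genes, were taken as *BaraA2* and *DptA*. No genome or protein sequences were used here. The calculations were tested on simulated reads.

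The members and the 10 gene lists were chosen with earlier results of these data known. Named are all members and other Toll-induced peptides, up to 3 called genes per direction of the Toll and Imd lists, 5 measured genes on either side of the cluster and the 3 genes nearest in ratio. Any gene beyond these was picked with its values in view. The alternatives were other scalings (median of ratios by DESeq2 1.42.0 among them), fold limits, read minimums and prior counts. Scaling to genes of 700 nt or less, the scalings of single genes and lists and the sum over 2R alone were chosen after seeing the data.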

Additional observations from a re-analysis of the deposited data

How the results depend on the processing

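The summed Bomanin log2 ratio of 1.80 was 1.54 with scaling by total reads, 1.48 with the qPCR reference genes, 1.06 with the fat body markers, 1.61 with genes of 500 nt or less and 1.64 with genes of 700 nt or less set to equality. It was 2.05 without *BomS3*, the gene with the most reads, and 2.09 as the median of the members. The median of ratios, the upper quartile, the authors' factors and the sum over 2R alone moved it by less than its interval. Each scaling moves all genes by 1 constant. Of 81 values of single members under the other scalings and a prior count of 2, 81 lay above 0. The count of 9 members called higher was 7 with the fat body markers and 9 under each other scaling, fold limit (1.2 and 2) and read minimum. Of all measured genes 5.70% were called higher at 2-fold on the TMM scale. The share was not taken for the other scalings, the 1.2-fold limit or the other read minimums. The count of 6 other Toll-induced peptides called higher was 3 with the qPCR reference genes and 2 with the fat body markers, and with the latter *Bbd* (-0.042), *BomT3* (-0.34) and *Dso1* (-0.43) turned below 0, *Dso1* also with the qPCR reference genes (-0.021). The sum over members that share no stretch of sequence was not run, since no transcript sequences were used here. No paired analysis was possible because each genotype has 1 library. With 1 library per genotype, the spread between pools of flies is unknown.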
